A study of Homo sapiens with 16 samples.

Results

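The data described here are the 2 ChIP and 2 input libraries of quiescent ΔLEO1 fibroblasts, 4 of the 16 libraries of the series, and they were chosen by their labels alone. The cells are BJ-5ta, an established line of human foreskin fibroblasts immortalized with the telomerase gene hTERT. ΔLEO1 cells came from 1 clone in which CRISPR/Cas9 removed DNA of LEO1, a subunit of the PAF1 complex that travels with RNA polymerase II, so an effect of the knockout and a feature of that clone cannot be told apart. Cells of both genotypes, wild type and ΔLEO1, were cultured in 10% serum, where they divide, or held in 0.1% serum for 10 days, where they become quiescent. The comparison group used below is wild-type BJ-5ta in 0.1% serum, again with 2 ChIP and 2 input libraries, which carry hTERT but no LEO1 deletion. Chromatin was pulled down with an antibody that the labels call H3 and that the methods of the study give as an antibody against dimethylated lysine 9 of histone H3 (H3K9me2). The replicate letters A and B are not stated to be separate cultures, so the p-values measure only the spread between these libraries. The labelled cell type could not be checked against expressed markers, because these reads measure DNA bound to the antibody and not RNA, and the deletion, which the methods place between exons 1 and 2 of LEO1, was not mapped to the counted windows here. The window at the LEO1 start was still covered in the inputs, by 20 and 24 reads for ΔLEO1 and 28 and 26 for wild type, and such counts were not used to check the knockout.

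H3K9me2 is laid down mainly by the methyltransferases EHMT1 and EHMT2 and is removed by demethylases of the KDM3, KDM4 and KDM7 families. It covers broad stretches of silent chromatin, many of them gene poor and close to the nuclear lamina, and is low at the starts of transcribed genes. In fibroblasts, genes used by other cell types, such as those of sensory neurons, skin and germ cells, are commonly held in such silent regions, while starts of genes that every cell uses lie in open chromatin, often in CpG islands.

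Promoters printed first show the range of sequence that stood at both ends of the measurement. They were taken from RefSeq (GRCh38.p14), hold 300 bases around the gene start, most of them upstream of it, and are written 5′ to 3′ on the strand of the gene. Capitals mark each CG dinucleotide (letters CG, which read the same on both strands). A CG occurred in 95.84% of the 27305 RefSeq promoters, with a median of 14 per promoter. NR0B1, ITM2A and ADAMTS19 were the 3 protein-coding genes with the highest ChIP over input, and PHLDA1 and ARFGAP2 the 2 with the lowest. The third lowest, SLC25A25, is not printed because the RefSeq start of that gene lies 30275 bp from its window, and that promoter held 9 CG dinucleotides.
NR0B1 (chrX:30309341-30309640, minus strand): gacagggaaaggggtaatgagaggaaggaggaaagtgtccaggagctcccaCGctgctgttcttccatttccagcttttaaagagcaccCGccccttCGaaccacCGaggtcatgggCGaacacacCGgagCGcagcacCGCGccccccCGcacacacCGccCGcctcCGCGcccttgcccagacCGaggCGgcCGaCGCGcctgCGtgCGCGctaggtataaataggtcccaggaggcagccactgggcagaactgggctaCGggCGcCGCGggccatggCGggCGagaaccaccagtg
ITM2A (chrX:79367285-79367584, minus strand): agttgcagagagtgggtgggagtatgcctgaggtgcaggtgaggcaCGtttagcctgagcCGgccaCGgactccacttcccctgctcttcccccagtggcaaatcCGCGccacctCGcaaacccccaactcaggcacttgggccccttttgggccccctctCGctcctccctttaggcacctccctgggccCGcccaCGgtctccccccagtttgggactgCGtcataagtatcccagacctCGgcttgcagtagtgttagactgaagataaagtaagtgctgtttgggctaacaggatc
ADAMTS19 (chr5:129460048-129460347, plus strand): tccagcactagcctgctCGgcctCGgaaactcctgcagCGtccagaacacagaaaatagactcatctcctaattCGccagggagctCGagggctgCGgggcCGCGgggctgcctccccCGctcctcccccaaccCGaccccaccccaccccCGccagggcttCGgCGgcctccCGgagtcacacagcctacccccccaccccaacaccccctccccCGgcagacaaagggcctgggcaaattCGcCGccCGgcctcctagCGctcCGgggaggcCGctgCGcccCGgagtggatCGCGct
PHLDA1 (chr12:76031727-76032026, minus strand): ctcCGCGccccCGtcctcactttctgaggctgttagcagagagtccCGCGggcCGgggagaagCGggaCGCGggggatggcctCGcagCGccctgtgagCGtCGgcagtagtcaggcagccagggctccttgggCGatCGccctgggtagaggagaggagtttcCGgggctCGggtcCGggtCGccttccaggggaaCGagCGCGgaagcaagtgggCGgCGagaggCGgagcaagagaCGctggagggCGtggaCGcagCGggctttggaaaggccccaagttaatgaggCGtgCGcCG
ARFGAP2 (chr11:47176830-47177129, minus strand): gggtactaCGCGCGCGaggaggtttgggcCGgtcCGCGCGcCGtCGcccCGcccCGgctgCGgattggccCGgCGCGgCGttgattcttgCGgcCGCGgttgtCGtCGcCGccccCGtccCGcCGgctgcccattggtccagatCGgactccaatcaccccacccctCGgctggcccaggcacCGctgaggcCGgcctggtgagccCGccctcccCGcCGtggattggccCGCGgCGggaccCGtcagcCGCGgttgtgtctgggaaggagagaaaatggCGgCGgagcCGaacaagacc
The 2 promoters with the lowest ChIP held 32 (PHLDA1) and 42 (ARFGAP2) CG dinucleotides, and 18.6% and 5.702% of RefSeq promoters, respectively, held at least as many. Of the 3 with the highest ChIP, NR0B1 held 28 and ADAMTS19 held 25, both above the median promoter, and ITM2A held 11, below it. Single promoters with many CG dinucleotides thus stood at both ends.

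Reads had been counted over 272902 windows of 2000 bp around annotated transcription start sites (TSS), of which 237274 were distinct, and over 16092 peak regions. Over the distinct windows the ChIP libraries held 3266061 (A) and 2195071 (B) reads, and the inputs 4622207 and 7302497. The median distinct window held 12 and 8 ChIP reads and 21 and 33 input reads, so a single window carried a wide counting error. Values are given as counts scaled to each library's total over distinct windows (CPM), and "higher" and "lower" mean ChIP against input on that scale. A level shared by all windows is removed by this scaling and cannot be seen. The log2 ratio of ChIP to input in letter A correlated with that in letter B across the tested windows (Pearson r = 0.787), which is a description across windows of shared libraries. No 2 libraries were identical, and replicates of ChIP and of input differed slightly beyond sampling noise (chi-square per degree of freedom 1.041 and 1.042 over non-overlapping windows). Another library of the series, ΔLEO1 in 10% serum ChIP A, held only 50 reads over distinct windows and entered no result below.

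The H3K9me2 signal over TSS windows of quiescent ΔLEO1 cells was broad and shallow where it was high and deep where it was low. Of 201149 windows tested, 51257 (25.5%) were higher and 60715 (30.2%) lower than input (edgeR quasi-likelihood test, adjusted p under 0.05). Of the higher windows 27887 exceeded 2-fold and only 246 exceeded 4-fold, while of the lower windows 57084 fell below input by over 2-fold and 29089 by over 4-fold. The median log2 ChIP over input was -0.03, and the middle 90% of windows ran from -3.13 to 1.31. In 50459 of the higher and 60477 of the lower windows, both ChIP libraries lay beyond both inputs. These windows were already called from the same libraries, so this is no separate support. The same count over all tested windows is not given here. Overlapping windows form loci, and 31874 loci held a higher and 14522 a lower window among 82424. The split depended on the scale. With library totals over non-overlapping windows, the median moved to -0.40, and 25641 windows were higher and 78621 lower. DESeq2 called 16333 higher and 37019 lower. The higher count also fell to 30974 without ChIP A and to 34050 without input B.

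The highest windows of protein-coding genes belonged to NR0B1, ITM2A, ADAMTS19, HOOK1, GJD2, GYG2, CPLX2 and RAX. NR0B1 encodes DAX-1, an orphan nuclear receptor of steroid-producing tissue, and its window (chrX:30308390-30310390) held 8.27 and 6.83 CPM in ChIP A and B against 0.865 and 1.51 CPM in the inputs. Both ChIP values stood far above both inputs (log2 fold change 2.58 ± 0.41 SE, adjusted p = 1.83e-08, edgeR). GJD2 encodes connexin 36 of electrical synapses, and at its window (chr15:34753998-34755998) the ChIP libraries held 17.8 and 16.9 CPM and the inputs 4.98 and 2.19 (log2 fold change 2.40 ± 0.26, adjusted p = 9.73e-17). CPLX2, a complexin of synaptic vesicle release (chr5:175870578-175872578), had 14.1 and 16.9 CPM in ChIP against 2.16 and 3.42 in input (log2 fold change 2.36 ± 0.28, adjusted p = 5.45e-14). RAX, a homeobox gene of the developing eye (chr18:59272454-59274454), had 16.2 and 16.9 CPM against 3.03 and 3.42 (log2 fold change 2.32 ± 0.26, adjusted p = 4.58e-15). These 3 of the 8 genes carried about the same ChIP level. The lack of overlap between ChIP and input was a condition for naming a window and is no result. ADAMTS19, a secreted metalloprotease (chr5:129459298-129461298), had 8.88 and 8.66 CPM in ChIP against 0.865 and 2.05 in input (log2 fold change 2.44). HOOK1, a linker of cargo to microtubules, had 13.2 and 14.6 CPM against 2.60 and 2.46 (log2 fold change 2.44). ITM2A, a membrane protein of cartilage and T cells, and GYG2, the liver glycogenin, completed the 8 highest protein-coding genes, with log2 fold changes of 2.46 and 2.40. Of the 12 highest windows over all gene types 5 were on chromosome X, PAFAH1B2P1 and ACTBP1 among them. The median tested window of X held 2.60 input CPM in both letters, against 4.76 and 4.79 on autosomes, and the part of low input in these ratios was not tested. The 12 windows rested on 10 to 58 ChIP reads and 3 to 25 input reads per library.

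At the other end stood windows without a single ChIP read. PHLDA1, a serum- and growth factor-induced gene, had 0 reads in both ChIP libraries at chr12:76030776-76032776 against 42 and 56 input reads, which put ChIP at least 7.33-fold lower than input (adjusted p = 1.36e-13, edgeR). ARFGAP2, a regulator of vesicle coats in the Golgi (chr11:47176125-47178125), had 0 ChIP reads against 39 and 54 in input and was at least 6.93-fold lower. DDX5, an RNA helicase of splicing and transcription (chr17:64505686-64507686), had 0 against 33 and 54 and was at least 6.36-fold lower. The bounds use a floor of 3 reads per ChIP library. SLC25A25, RHBDD3, MMS19, ATM, UQCRC2, OGA, TRIB2, CFAP119 and PCIF1 also had 0 ChIP reads in both libraries, and all 12 lowest windows were at least 6.03-fold lower. UQCRC2 is a subunit of the respiratory chain, and OGA removes O-GlcNAc from proteins. Among the 12 highest and 12 lowest windows, each call remained under TMM scaling and the replicate block (the letter A or B as a term). Wild-type cells showed the same direction at each of these genes, with log2 fold changes of 1.27 for NR0B1, 2.28 for GJD2, -3.88 for PHLDA1 and -3.71 for ARFGAP2.

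**Figure D1:**
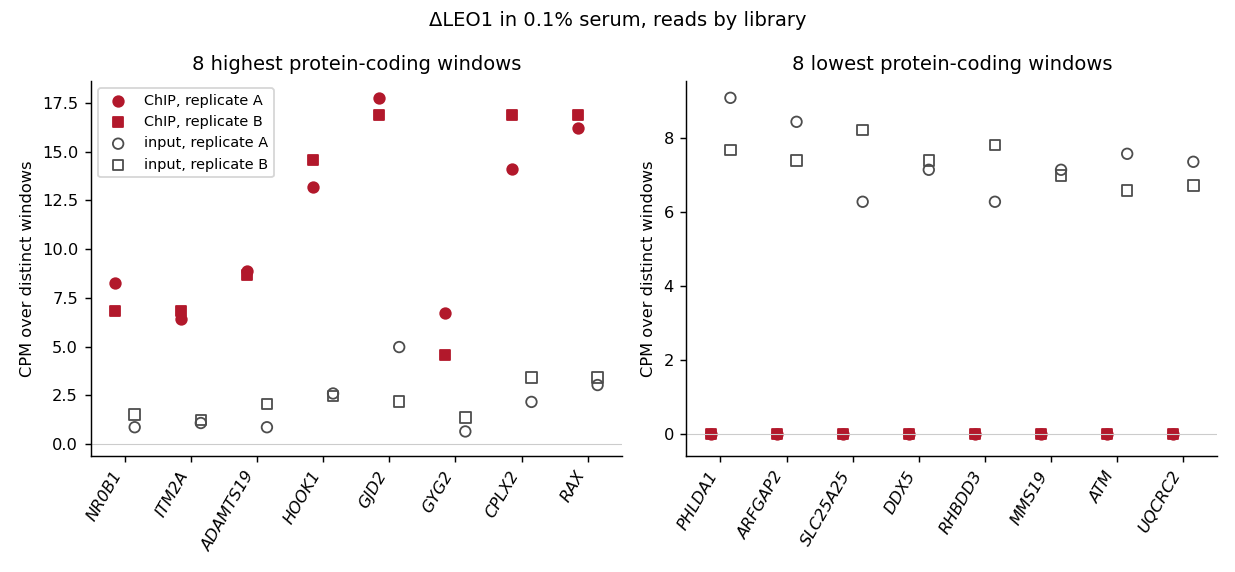
ChIP (filled) and input (open) levels in CPM of the 8 highest (left) and 8 lowest (right) protein-coding windows in quiescent ΔLEO1 cells, 1 point per library (circles A, squares B), on linear axes of different range. In the highest windows both ChIP points lie above both inputs, which the naming rule required, as for GJD2 at 17.8 and 16.9 CPM against 4.98 and 2.19. In the lowest windows both ChIP libraries hold 0 reads.

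CpG content of the promoter, which the choice of libraries did not use, divided the windows. RefSeq promoters matched 18324 genes with a start within 500 bp of a window, and 16766 of these windows were tested. Promoters with high CpG (observed over expected CpG above 0.75 and GC above 55%) numbered 7653, and their windows had a median ChIP of 2.14 and 2.28 CPM against 4.98 and 5.20 CPM in input. Of these, 593 were higher and 4579 lower, with a median log2 fold change of -1.28. Low-CpG promoters (observed over expected CpG below 0.48) numbered 5351 and had the reverse pattern, with median ChIP of 6.12 and 5.92 CPM against 4.54 and 4.52 in input. There 2114 windows were higher and 583 lower, and the median was 0.52. The 3762 promoters between these classes had a median of -0.55. Input medians differed little between the classes, and the ChIP medians differed by more than 2-fold in both letters. The medians of low and high CpG promoters were 1.80 apart on the log2 scale and between 1.74 and 1.84 apart when any 1 library was left out. At GC content of 55 to 60%, the medians were still -1.19 for high, -0.54 for intermediate and 0.26 for low CpG promoters. These classes are a description without a test, since promoters are not replicates.

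**Figure D2:**
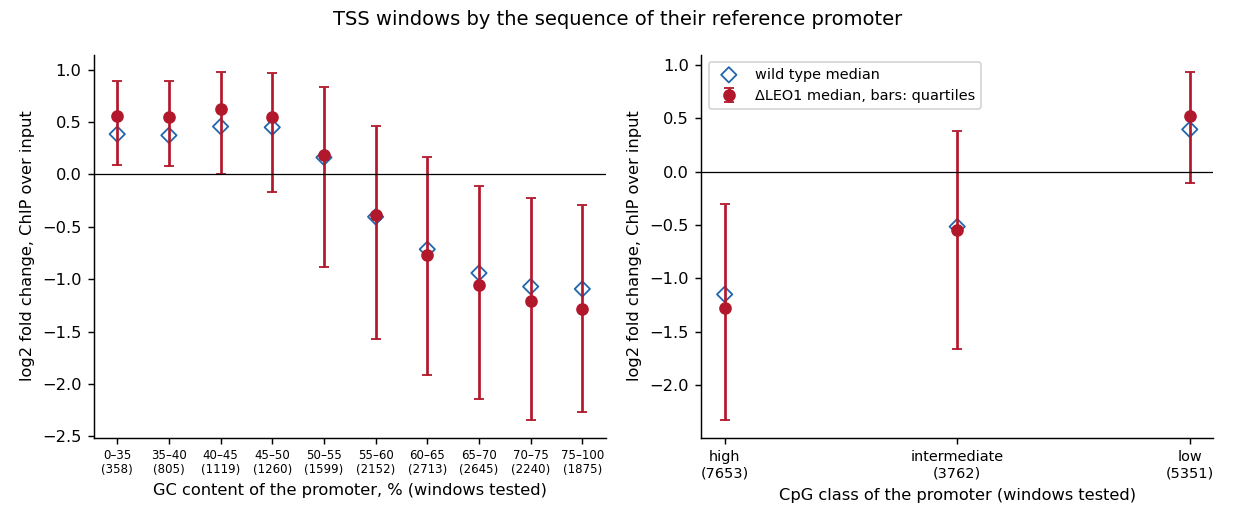
Median log2 ChIP over input of TSS windows by GC content (left) and CpG class (right) of their RefSeq promoter, with bars for the quartiles of quiescent ΔLEO1 cells and open diamonds for wild-type medians. The ΔLEO1 median goes from 0.52 at low CpG to -0.55 at intermediate and -1.28 at high CpG.

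The density of gene starts along the genome showed a matching order. Density was counted as non-overlapping windows per megabase. In megabases with fewer than 10 of these, 56.1% of all tested windows were higher and 8.17% lower, with a median of 0.79. The median declined with each step in density, to 0.64 at 10 to 20 windows per megabase, 0.27 at 20 to 40, -0.01 at 40 to 60, -0.28 at 60 to 80 and -0.69 at 80 or more. In the densest class only 10.6% of windows were higher and 43.6% lower. Ratios of summed reads moved from 1.58 and 1.70 (letters A and B) in the sparsest to 0.757 and 0.705 in the densest megabases. CpG content and gene density go together in the human genome, and their separate parts were not tested.

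Genes were next described by families, each gene by its middle distinct window. Over all 55710 genes tested, 21226 (38.1%) were higher and 10548 (18.9%) lower, with a median log2 fold change of 0.46. The counts of each family are read against these shares, which include pseudogenes and noncoding genes. Of protein-coding genes alone, 19.65% were higher and 36.35% lower. Of 34 families 22 had a median above 0. With totals over non-overlapping windows this was 18, because the medians of the PAX and LHX genes, collagens, immunoglobulin segments and microRNA genes then fell below 0. Reads from near-identical copies may be split or dropped in large families, and how that was handled is not given in the sources used here. Windows of neighbouring, overlapping and antisense genes share reads, and strand was not used.

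Chemosensory receptors were higher more often than the background of all genes and seldom lower. Class II olfactory receptors, the tetrapod-type odorant receptors, had 154 of 288 genes higher and 1 lower (median 0.75), and class I receptors, the fish-like branch in 1 cluster on chromosome 11, had 34 of 55 higher and 1 lower (median 0.81). Bitter taste receptors had 8 of 10 higher and 0 lower (median 0.98). Of 24 listed only these 10 had enough reads, at a mean input of 1.78 and 1.91 CPM over the list. Genes of low input can pass that filter through their ChIP reads, and the summed ratios over the list were 1.99 and 2.10. OR13C7 on chromosome 9 held 13.2 and 14.6 CPM in ChIP against 3.25 and 3.01 in input (log2 fold change 2.14 ± 0.28, adjusted p = 4e-11, edgeR), with no overlap. TAS2R4, a bitter receptor on chromosome 7, held 12.2 and 11.4 CPM against 4.54 and 3.42 (log2 fold change 1.62 ± 0.28). The class I exception, OR52N2, held 0.306 and 1.37 CPM in ChIP against 3.25 and 4.38 in input (log2 fold change -2.38, adjusted p = 0.000253), and this call was lost without ChIP A (-1.51) and without input B (-2.08). The class II exception, OR6C3 (log2 fold change -1.79), lost its call without either of the same libraries and by DESeq2.

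Among genes of the skin barrier, only keratin-associated proteins of the hair shaft stood well above the 38.1% of all genes that were higher. They had 36 of 62 genes higher (58.1%) and 1 lower (median 0.81). Of 94 listed only these 62 had enough reads, at a mean input of 2.81 and 2.75 CPM over the list. Genes of low input can enter the test through their ChIP reads, so this share is partly set by the filter. The summed ratios over the list were 1.76 and 1.67. Nearer the 38.1% were the epidermal differentiation complex of cornified envelope genes, with 16 of 38 higher (42.1%) and 0 lower (0.60), and keratins. Both were well above the 19.65% of protein-coding genes that were higher. Keratins had 20 of 45 higher (44.4%) and 1 lower (0.54), with 15 of 27 higher on chromosome 12 and 5 of 18 (27.8%) on chromosome 17. KRT75, a hair follicle keratin on chromosome 12, held 12.9 and 10.9 CPM in ChIP against 2.38 and 3.56 in input (log2 fold change 1.95 ± 0.29). KRT18, a simple-epithelium keratin that many cultured cells transcribe, was the keratin that was lower, with 1.84 and 1.37 CPM against 3.89 and 5.75 (log2 fold change -1.59), a call lost without input B and by DESeq2. Among immune genes, defensins had 20 of 43 higher and 0 lower (0.70) and T cell receptor segments 71 of 157 higher and 7 lower (0.62). These were the genes with enough reads of 67 defensins and 234 segments listed, so the filter partly set these shares too. Summed ratios over the lists were 1.43 and 1.52 for defensins and 1.45 and 1.61 for T cell receptor segments. Immunoglobulin segments were called less often in both directions, with 26 of 138 higher (18.8%) and 15 lower (10.9%), against 38.1% and 18.9% of all genes. Of 400 segments listed, only these 138 had enough reads for the test. Their median was 0.14, against 0.30 in wild type, and 0 of 173 segments differed from wild type in the edgeR test.

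Neural families were mixed. GABA receptors, the inhibitory ligand-gated channels, had 12 of 18 genes higher and 0 lower (median 1.11), the largest median of the 34 families, with summed ratios of 1.95 and 1.94. GABRR2 held 12.6 and 12.8 CPM in ChIP against 3.46 and 5.07 in input (log2 fold change 1.5 ± 0.27). Glutamate receptors had 5 of 17 higher and 4 lower (0.38, which became -0.18 without ChIP A), and potassium channels 27 of 91 higher and 12 lower (0.37). KCNH4, a channel of brain, held 12.9 and 12.8 CPM against 3.25 and 3.15 (log2 fold change 2.0 ± 0.29), while KCNQ5 was lower (-1.99). The clustered protocadherins, surface labels of neuronal identity in 3 tandem clusters on chromosome 5, had 16 of 53 higher and 7 lower, and the clusters were apart from each other. PCDHA genes had 10 of 16 higher and 0 lower (median 0.72), PCDHB genes 1 of 15 higher and 5 lower (-0.66), and PCDHG genes 5 of 22 higher and 2 lower (0.34). PCDHAC1 held 14.1 and 12.8 CPM against 3.03 and 4.38 in input (log2 fold change 1.81 ± 0.27). PCDHGB4 held 2 and 1 ChIP reads against 22 and 30 input reads, a ratio of 0.126 (95% exact interval 0.0252 to 0.389). These intervals reflect counting error alone, because copies of a molecule made by PCR were not marked. Divisions of a family were made after its values were seen.

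Cancer-testis genes of the MAGE, GAGE, PRAMEF, SSX and CT families, which only germ cells normally transcribe, had 25 of 37 tested genes higher and 0 lower (median 1.02, summed ratios 2.08 and 1.91). The list held 97 genes, and the rest had too few reads for the test. Mean input over the list was only 1.11 and 1.10 CPM, and a gene of low input could enter the test through its ChIP reads alone. The counts of calls and the median are thus partly set by the filter, while the summed ratios cover the whole list. PRAMEF15 held 6.74 and 8.20 CPM in ChIP against 2.38 and 1.64 in input (log2 fold change 1.91 ± 0.38). Cytochrome P450 genes, largely of the liver, had 18 of 53 higher (33.96%) and 4 lower (0.43). That was near the share of all genes and above the 19.65% of protein-coding genes that were higher.

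Developmental regulators were spread over both directions. Of 39 HOX genes, which set position along the body axis, 9 were higher and 11 lower (median -0.10, and 0.07 without input B). HOXD genes had 3 of 9 higher and 0 lower, and HOXA genes 3 of 11 higher and 5 lower. HOXD4 held 10.1 and 10.5 CPM in ChIP against 4.11 and 3.15 in input (log2 fold change 1.53 ± 0.30, adjusted p = 4.1e-06, edgeR). HOXA9 held 0 ChIP reads in both libraries against 21 and 41 input reads and was at least 4.44-fold lower. HOXA10 beside it held 0 and 1 ChIP reads against 23 and 41, a ratio of 0.0341 (0.000851 to 0.197). Within the same cluster HOXA2 was higher, at 10.4 and 7.29 CPM against 4.33 and 3.42 (log2 fold change 1.27), a call lost without ChIP A. SOX genes had 6 of 16 higher and 6 lower, with SOX3, a neural progenitor gene, at 1.72 (lost without ChIP A) and SOX12 at 0 ChIP reads. ZNF zinc finger genes, many of them repressors of retroelements, had 90 of 520 higher and 149 lower (median -0.21). Those on chromosome 19 had 41 of 255 higher and 65 lower (-0.11), and those elsewhere 49 of 265 higher and 84 lower (-0.32).

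Families of genes that every cell uses were mostly lower. Of all protein-coding genes 36.35% were lower, and of tested windows with a high-CpG promoter 59.83%. Cytosolic ribosomal proteins had 3 of 75 higher and 45 lower (median -1.30, summed ratios 0.537 and 0.451), mitochondrial ribosomal proteins 1 of 74 higher and 38 lower (-1.04), proteasome subunits 2 of 35 higher and 19 lower (-0.98), SF3 and SNRP spliceosome genes 1 of 21 higher and 13 lower (-1.27), and replication-dependent histones 5 of 58 higher and 32 lower (-1.01). Few members were higher. RPL10L, an intronless testis copy of RPL10, held 13.8 and 16.4 CPM against 3.68 and 5.20 (log2 fold change 1.68 ± 0.25). H1-6, the testis linker histone, held 14.4 and 11.8 CPM against 4.54 and 4.79 (log2 fold change 1.5), whereas H4C8, also on chromosome 6, had 1 and 0 ChIP reads against 30 and 49 (ratio 0.0276, 0.000691 to 0.159). H4C7 (1.33) and RPL22 (0.99) were higher too, of which RPL22 lost its call by DESeq2. MRPS21 (0.78) and PSMB1 (0.79) lost theirs without ChIP A, without input B, with totals over non-overlapping windows and by DESeq2. PSMA8, the proteasome subunit of spermatocytes, was at 1.47 but lost its call without ChIP A. SNRPN, an imprinted gene most used in brain, was at 1.08 (adjusted p = 0.00413) and lost its call without ChIP A, with totals over non-overlapping windows and by DESeq2.

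Processed copies of the same genes stood on the opposite side. Ribosomal protein pseudogenes had 748 of 1187 higher and 24 lower (median 0.87, summed ratios 1.74 and 1.82). Protein-coding translation initiation factors had 2 of 52 higher and 33 lower (-1.37), and their pseudogenes, which the name pattern of this list also caught, 55 of 75 higher and 1 lower (0.91). EIF4A1, the helicase of cap-dependent initiation, held 0 ChIP reads against 28 and 49 input reads and was at least 5.59-fold lower, whereas its pseudogene EIF4A1P13 held 7.04 and 12.3 CPM in ChIP against 2.60 and 3.83 in input (log2 fold change 1.45 ± 0.32). Over all pseudogenes of the RefSeq annotation, 5978 of 10044 were higher and 236 lower (median 0.83), against 3410 of 17354 higher and 6309 lower for protein-coding genes (-0.33). LINC genes had 1099 of 2097 higher and 152 lower (0.73), and microRNA genes 603 of 1751 higher and 326 lower (0.36). MIR151A held 12.9 and 18.2 CPM in ChIP against 4.33 and 3.01 in input (log2 fold change 2.08), and MIR1181 held 0 ChIP reads and was at least 5.76-fold lower. Where a microRNA lies inside another gene, reads of the 2 cannot be told apart.

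Serum and growth genes included the deepest nuclear family. All 16 tested immediate early genes, which serum induces within minutes, were lower (median -2.87, summed ratios 0.186 and 0.174). Of all genes 18.9% were lower, and of protein-coding genes 36.35%. JUN held 1 and 0 ChIP reads against 27 and 42 input reads, a ratio of 0.0316 (0.00079 to 0.182). EGR3 (-1.18) and EGR2 (-1.27) were the least reduced, EGR2 with 2.45 and 2.28 CPM against 3.89 and 6.98, and both calls were lost without ChIP A, without input B and by DESeq2. Of 63 genes of DNA replication and the cell cycle 0 were higher and 35 lower (median -1.08). PCNA, the sliding clamp of DNA polymerase, held 1 and 0 ChIP reads against 26 and 44 (ratio 0.0312, 0.000779 to 0.18). Among matrix genes of fibroblasts, collagens had 12 of 42 higher and 10 lower (0.08), with COL1A1, the main fibroblast collagen, at 1 and 1 ChIP reads against 22 and 40 (ratio 0.0704, 0.00834 to 0.265) and COL25A1, a collagen of neurons, at 1.74. Matrix metalloproteinases had 6 of 20 higher and 5 lower. MMP14, the membrane-bound collagenase of fibroblasts, held 0 and 1 reads against 25 and 43 (ratio 0.0321, 0.000801 to 0.185), and MMP12, the macrophage elastase, held 9.49 and 9.57 CPM against 4.11 and 2.88 (log2 fold change 1.5 ± 0.31).

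**Figure D3:**
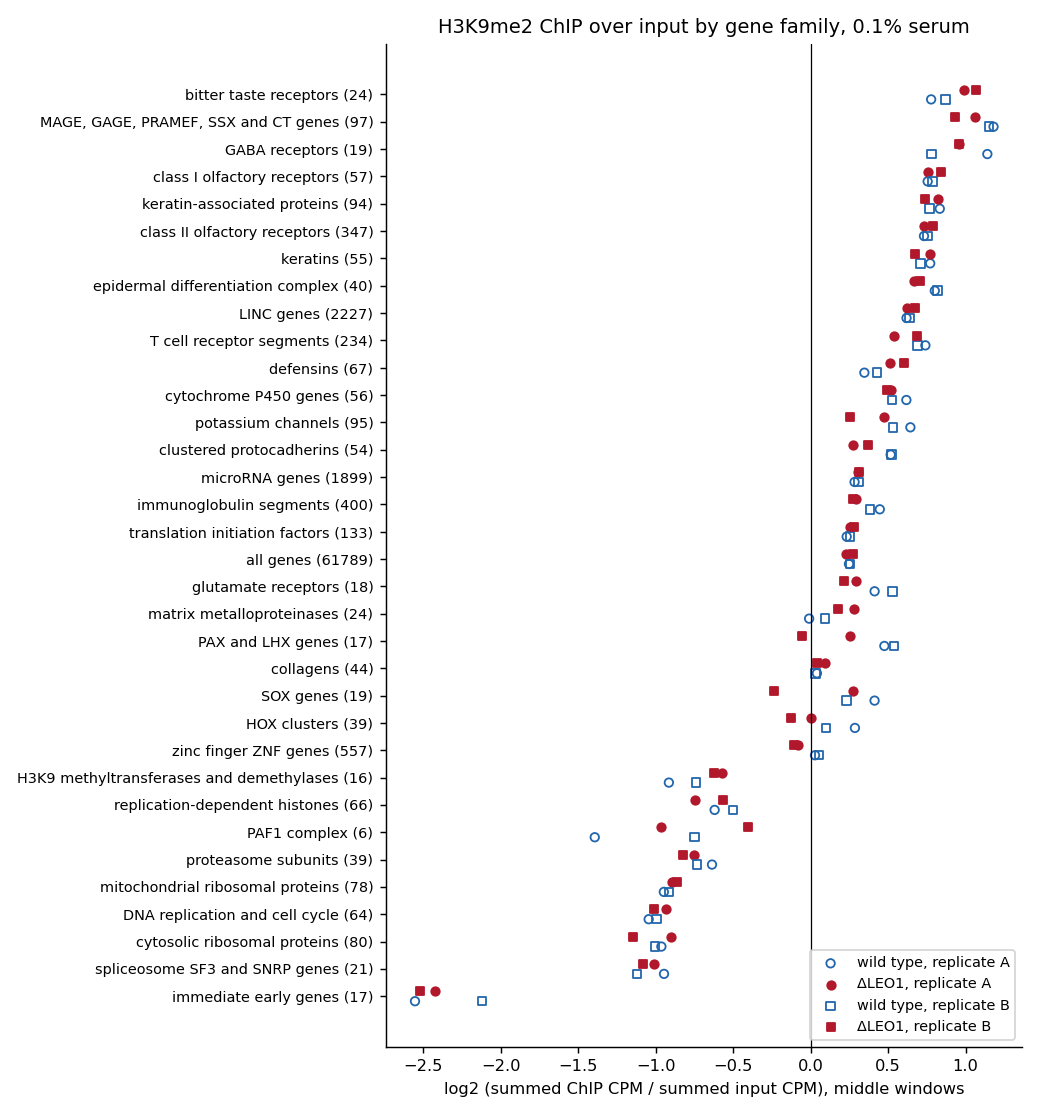
Log2 of summed ChIP CPM over summed input CPM by gene family (listed genes in brackets, mitochondrial genes not drawn), 1 point per letter (circles A, squares B), for ΔLEO1 (filled) and wild type (open) in 0.1% serum. The ΔLEO1 ratios run from 1.99 and 2.10 for bitter taste receptors to 0.186 and 0.174 for immediate early genes, and those of all genes are 1.17 and 1.21.

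The PAF1 complex itself and the enzymes of H3K9 methylation were mostly lower or unresolved. Of the 6 PAF1 complex genes, 1 was higher and 3 lower (median -0.91). PAF1, the namesake scaffold, held 0.919 and 0.911 CPM in ChIP against 5.63 and 5.20 in input (log2 fold change -2.52 ± 0.54, adjusted p = 2.1e-05, edgeR). CDC73 held 1.53 and 5.01 CPM against 7.14 and 7.39 (-1.31), and WDR61 2.76 and 2.73 against 6.49 and 6.16 (-1.19), and both calls were lost without ChIP A and by DESeq2. CTR9 (-0.40, adjusted p = 0.399) and RTF1 (-0.63, adjusted p = 0.127) did not pass the test. LEO1 was the member that was higher. Its window at chr15:51970776-51972776 held 6.43 and 6.38 CPM in ChIP against 4.33 and 3.29 in input (log2 fold change 0.79 ± 0.34, adjusted p = 0.0407). That call was lost under the replicate block (adjusted p = 0.0704), by DESeq2, with totals over non-overlapping windows and without ChIP A, ChIP B or input B. In wild type the value was -0.24, and the difference of 1.03 did not pass the test (adjusted p = 0.557). A second start of LEO1 at chr15:51954061-51956061 was at 0.49 (adjusted p = 0.222). Of 13 H3K9 methyltransferase and demethylase genes 0 were higher and 4 lower (median -0.44). SUV39H2, an H3K9 methyltransferase, held 1 and 2 ChIP reads against 28 and 34 (ratio 0.106, 0.0212 to 0.323), and JMJD1C, of the KDM3 family, held 2 and 1 against 19 and 41 (ratio 0.109, 0.0219 to 0.335). KDM4A was at 0.71 (adjusted p = 0.0564).

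Summed over all windows of a chromosome, 13 of 24 chromosomes (54.2%) were higher and 8 (33.3%) lower. Among nuclear chromosomes the order ran from 22 to 18. Chromosome 22 had ChIP over input of 0.835 and 0.786 in letters A and B (log2 fold change -0.30, adjusted p = 6.38e-06, edgeR), chromosome 17 had 0.842 and 0.790 (-0.29), chromosome 19 had 0.895 and 0.840 (-0.21) and chromosome 16 had 0.914 and 0.868 (-0.17). Chromosomes 11 and 12 (-0.08 each) and 1 (-0.03) followed, of which 11 lost its call without ChIP A or ChIP B and 1 without input B and under the block. Chromosomes 9, 14 and 20 did not pass the test. At the top, chromosome 18 had 1.24 and 1.28 (0.33 ± 0.04), chromosome 13 had 1.21 and 1.25 (0.30 ± 0.05) and chromosome 21 had 1.15 and 1.20 (0.24 ± 0.06). The 2 letters agree on the side of 1 for 22 of 24 chromosomes. On chromosome 18, 39.1% of tested windows were higher and 21.6% lower, and on chromosome 22 these were 14.1% and 39.9%. Chromosomes 18 and 13 are gene poor and 17, 19 and 22 are gene rich. Chromosome X was at 0.16 (adjusted p = 0.0107, edgeR), a call lost without ChIP A, under TMM and under the block. Only 4151 of its 6900 distinct windows were tested, and 35.2% of those were higher. Windows of low input can enter that test through their ChIP reads, so this share is partly set by the filter. The mitochondrial genome, which carries no histones, had 0.0212 and 0.0287 (-5.36), and all of its 37 gene windows were lower, for example MT-TK with 7.96 and 10.5 CPM against 562 and 431. The order of nuclear chromosomes rests on ratios within each library, but the side of the input depended on the totals. TMM gave 8 higher and 10 lower, and totals over non-overlapping windows 0 higher and 22 lower. In the latter, reads were still summed over all distinct windows, which do overlap. With sums and totals both over non-overlapping windows, 13 were higher and 8 lower.

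**Figure D4:**
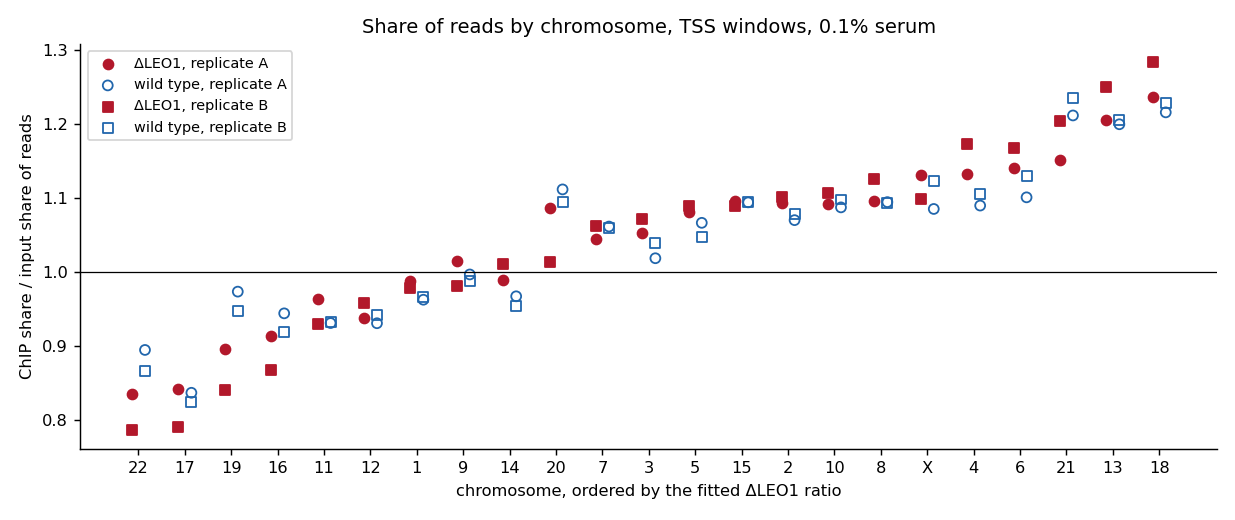
ChIP share over input share of the reads of each nuclear chromosome, from distinct TSS windows, 1 point per letter (circles A, squares B), for ΔLEO1 (filled) and wild type (open). The ΔLEO1 points run from 0.835 and 0.786 on chromosome 22 to 1.24 and 1.28 on chromosome 18.

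Peak regions are the authors' merged intervals of 340 to 4172 bp (median 759). The libraries on which they were called are not stated, and if these ChIP libraries were among them the regions were chosen as high, so their enrichment is a description. Of 14535 regions tested, 13805 (95%) were higher and 0 (0%) lower. The median log2 ChIP over input was 1.73, the middle 90% ran from 0.90 to 2.58, 13493 regions exceeded 2-fold and 4313 exceeded 4-fold. In 15352 of all 16092 regions both ChIP libraries lay above both inputs, and in 12 both lay below. Scalings that centre the regions on themselves removed the calls by construction, with 1 higher and 2 lower under TMM, 0 higher and 3 lower with totals of the peak table and 0 by DESeq2 (194 at an unadjusted p under 0.05). Only 3.03% of regions lay within 1 kb of a TSS, 9.56% at 1 to 10 kb, 47.9% at 10 to 100 kb and 39.3% beyond 100 kb. Their medians hardly differed, between 1.69 and 1.76. Relative to gene starts, regions were most frequent on chromosome 13 (156 per 1000 distinct windows) and 5 (120) and sparse on 19 (21.6) and X (0.29, 2 regions). This measure rises where gene starts are few, and density per length of chromosome was not computed.

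The regions with the largest ratios rested on few input reads, and 4 of the 6 named were in repeats. The region nearest LOC101927138 (chr20:42868814-42869318), inside an MLT1A1 element of the ERVL-MaLR class of endogenous retroviruses, held 14 and 17 ChIP reads against 2 and 0 input reads (log2 fold change 4.86 ± 0.61, adjusted p = 5.6e-12, edgeR). That is a ratio of 33.8 with a 95% exact interval of 8.61 to 292. A simple repeat nearest LOC101929237 (chr8:22807916-22808431) held 13 and 18 against 1 and 2 (ratio 22.6, 7.04 to 115). LTR12C elements, long terminal repeats of the ERV9 retrovirus group, gave the regions nearest DLD (chr7:107887815-107888341, at -3029 bp from its start), with 15 and 11 against 2 and 1, and nearest DSC3 (chr18:30788405-30788972), with 12 and 13 against 3 and 0. Regions in introns of TMEM255B and IL1R1, the receptor of interleukin 1, held 20 and 17 against 4 and 1 and 21 and 18 against 2 and 4. The IL1R1 region was at 3.76 here and 1.01 in wild type, a difference of 2.77 that did not pass the test (adjusted p = 0.18). At the low end, 0 regions passed the rule for a named decrease. The lowest values were in introns of SFMBT2 (-0.78, adjusted p = 0.152) and CTNND2 (-0.26), in an intergenic region nearest LINC01734 (-0.50) and in an intron nearest the start of MYT1L-AS1 (-0.25, at -274203 bp), and wild type had values of 1.10 to 1.83 in these 4 regions.

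Annotation classes of the regions differed little in height. All 26 classes with at least 20 regions (100%) were higher than input, with 16030 regions between them. The highest were simple repeats (log2 fold change 1.87 ± 0.07, 175 regions, ratios 3.98 and 3.34), ERV1 endogenous retroviruses (1.82 ± 0.06, 2330 regions, ratios 3.77 and 3.31), hAT-Tip100 DNA transposons (1.80, 81 regions), regions annotated as non-coding (1.80, 95 regions) and SVA composite retroposons (1.78, 139 regions). L1 elements, the active family of long interspersed repeats, made the largest class with 3120 regions (1.71, ratios 3.51 and 3.07), followed by 2674 intergenic regions (1.65), the ERV1 class and 1823 intronic regions (1.69). Regions at promoters (285 regions, 1.74), in CpG islands (256, 1.65) and in Alu elements (1268, 1.69) had nearly the same ratio. The lowest were centromeric satellites (55 regions, 1.38 ± 0.10, ratios 2.75 and 2.48), ERVK elements (27 regions, 1.5) and other satellites (26 regions, 1.49). In the last of these, letters A and B were far apart, with ratios of 3.59 and 2.42. Centring on the regions by TMM left 0 classes higher and 1 lower. Copies of a repeat share sequence, and the handling of reads that fit several copies is not given in the sources used here.

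**Figure D5:**
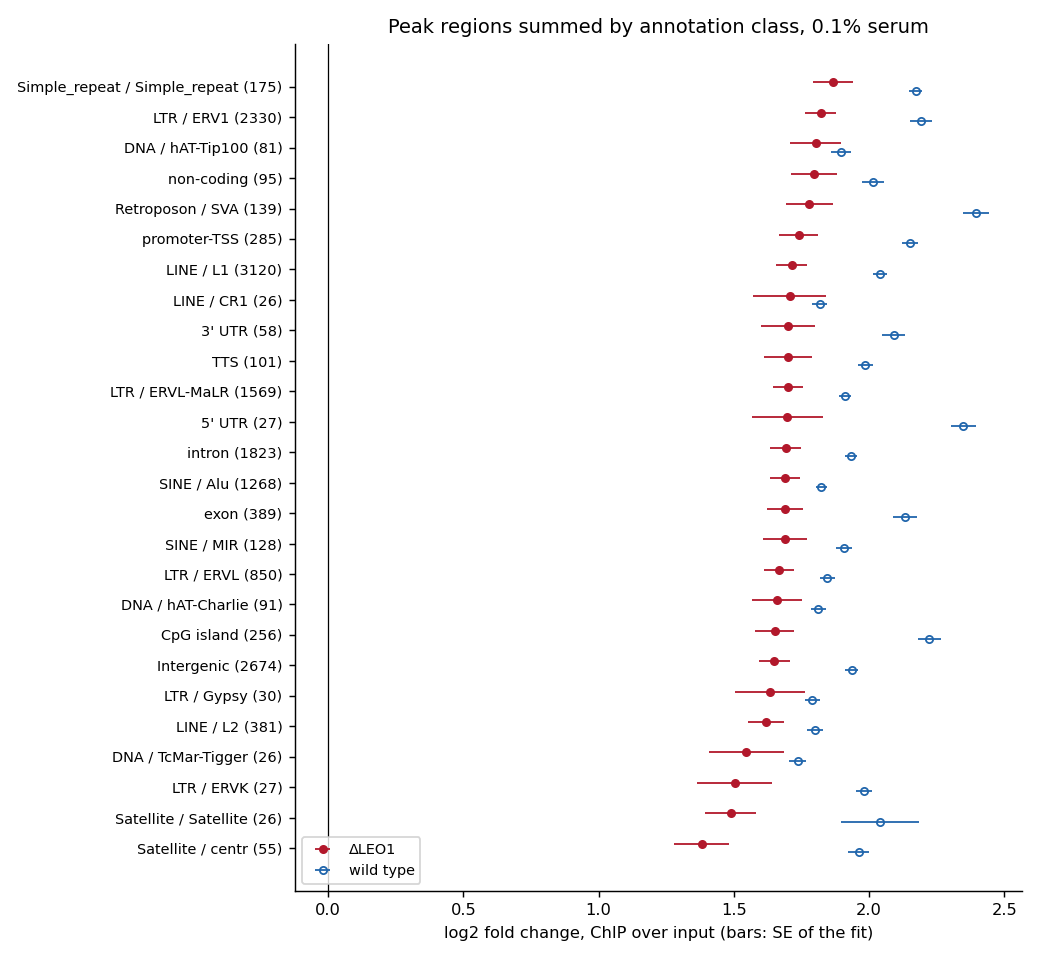
Fitted log2 ChIP over input of peak regions summed by annotation class (regions in brackets) in 0.1% serum, with bars for the SE of the fit, for ΔLEO1 (filled) and wild type (open). ΔLEO1 values lie between 1.38 and 1.87, and the wild-type point lies to the right of the ΔLEO1 point in all 26 classes, of which 19 passed the test of the difference.

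Against wild-type cells in the same serum, few single windows passed the test of the difference, which at these depths does not show that the rest were alike. The test of the difference in ChIP over input called 14 of 204810 windows (0.00684%) higher and 33 (0.0161%) lower in ΔLEO1, in 9 and 19 loci, while 17616 had an unadjusted p under 0.05. DESeq2 called 0 (4003 unadjusted), and totals over non-overlapping windows gave 13 higher and 61 lower. The count was 0 without ΔLEO1 ChIP A, 1 without wild-type ChIP A, 2 without wild-type input A, 6 without wild-type ChIP B, 7 without ΔLEO1 ChIP B, 12 without ΔLEO1 input B and 17 without wild-type input B. The largest window differences among those that met the naming rule were in both directions. SGCD, a sarcoglycan of muscle membrane (chr5:156326164-156328164), held 11.0 and 8.20 CPM in ΔLEO1 ChIP against 3.03 and 4.79 in input, and 3.08 and 1.26 CPM in wild-type ChIP against 7.33 and 5.22. The 2 genotypes lay on opposite sides of their inputs (difference 2.72 ± 0.49, adjusted p = 0.00641, edgeR). SLC7A11, the cystine transporter (chr4:138241349-138243349), held 0 and 0 ChIP reads in ΔLEO1 against 22 and 33 input reads, and 11 and 9 in wild type against 33 and 31 (adjusted p = 0.0256). CLDN7, a claudin of epithelial junctions (chr17:7261478-7263478), held 1.84 and 1.82 CPM against 4.54 and 5.61 in ΔLEO1, and 8.21 and 7.58 against 2.93 and 4.38 in wild type (difference -2.61, adjusted p = 0.0194). Of all genes described by their middle window, 20 differed, and of the 34 families only microRNA genes (2) and LINC genes (1) held any.

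Peak regions and chromosomes gave no call against wild type, and annotation classes did. Of 16027 regions, 0 (0%) were higher and 0 (0%) lower by edgeR, with 1693 at an unadjusted p under 0.05, and DESeq2 also called 0 (380 unadjusted). The median difference was -0.32, and 10752 regions were below 0. Regions within 1 kb of a TSS had a median of 1.76 in ΔLEO1 and 2.24 in wild type. Of 24 chromosomes 0 (0%) passed in either direction (10 unadjusted by edgeR), and without ΔLEO1 input A 6 were higher and 2 lower. Of 26 classes, 0 (0%) were higher and 19 (73.1%) lower than in wild type. The largest differences were in 5′ UTR regions (-0.65 ± 0.12), SVA elements (-0.62 ± 0.09), centromeric satellites (-0.58 ± 0.08) and CpG islands (-0.57 ± 0.09), and the smallest called one in Alu elements (-0.13 ± 0.04). SVA regions had ratios of 3.67 and 3.23 in ΔLEO1 and 5.60 and 4.94 in wild type, and CpG island regions 3.45 and 2.87 against 4.85 and 4.49, without overlap. Reads over peak regions per read over distinct windows were 0.103 and 0.0991 in the ΔLEO1 ChIP libraries and 0.125 and 0.123 in wild type, while the 4 inputs lay between 0.0301 and 0.0319. Under TMM, which centres the classes, 1 was higher and 6 lower than in wild type. A difference in all regions and a difference in library composition cannot be told apart on this scale. Nor can a choice of regions that favoured wild type, since the libraries used to call them are not stated.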

How the data were processed

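ChIP and input DNA of BJ-5ta fibroblasts had been sequenced, and the authors deposited raw read counts, whole numbers without scaling, over 2000 bp TSS windows and over merged peak regions, with 1 column per library. The submitters' processing notes name bcl2fastq 2.20.0.422, STAR 2.7.10a, HOMER and the builds hg38 and dm6, with no role given, and the methods of the study name csaw and scaling to fly spike-in chromatin. That scaling is not in the counts and was not used (0 windows or regions on fly contigs). The peak caller and the handling of duplicate reads are not given in the sources used here.

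Repeated windows were counted once. Of 19216 repeated windows, 2399 had counts that differed between repeats, and the first listed was kept. Library sizes were totals over distinct windows. ChIP was compared with input by edgeR 4.0.16 (quasi-likelihood F-test, two-sided, no TMM) in R 4.3.3. Benjamini-Hochberg adjustment was over everything tested, with a threshold of 0.05. Windows and regions were filtered by filterByExpr with a minimum count of 10, and sums by chromosome or annotation class were not. Fold changes are those of this test and were not shrunk by a prior count of 2. Standard errors came from the F statistic. The difference from wild type was a contrast in a fit of 8 libraries. Counts were also summed by chromosome and by annotation class (repeats by class and family, which divides them further than planned). Chromosome Y and unplaced contigs were left out. Alternatives were TMM, DESeq2 1.42.0, no filter, other totals, the replicate letter as a block, all 15 usable libraries, and each library left out. Totals over non-overlapping windows against wild type were chosen after seeing the data. The edgeR code was tested on simulated data. Tables were handled with Python 3.11.15, pandas 2.3.3, numpy 2.4.6 and scipy 1.17.1.

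Families, lists and comparisons were chosen with earlier results of these data known. A gene was represented by its middle distinct window. Named windows were called, had both ChIP libraries beyond both inputs and at least 10 reads in each library of the higher group, and were the 12 highest and 12 lowest, plus the 8 highest and lowest protein-coding genes, the 2 highest and 2 lowest genes of each family, 6 peak regions and 4 windows each way against wild type. The 4 lowest regions were named outside this rule, after their values were seen.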

Additional observations from a re-analysis of the deposited data

Results flagged for a closer look

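ChIP over input differed between ΔLEO1 and wild type in 0.1% serum, by the test of the difference itself (edgeR, adjusted p under 0.05) and with both letters apart, at windows of 8 genes that were higher and 16 that were lower in ΔLEO1, and the 4 with the largest difference each way are given. MIR3677 was 3.31 higher in ΔLEO1 on the log2 scale (adjusted p = 0.036), with 16 and 15 ChIP reads against 26 and 33 in input, and 1 and 2 against 31 and 31 in wild type. C5orf24 was 3.12 higher (adjusted p = 0.0194), SGCD 2.72 higher and TNFAIP1 2.69 higher (adjusted p = 0.0194). The difference at SLC7A11 was -6.85, a fitted value on 0 ΔLEO1 ChIP reads that is no bound. RBFOX1 was at -3.55 (adjusted p = 0.0235), with 5 and 1 ChIP reads against 16 and 20 in ΔLEO1 and 17 and 10 against 9 and 5 in wild type, LINC01856 at -2.69 and CLDN7 at -2.61 (adjusted p = 0.0194 each). All of these named calls were lost by DESeq2 and without ΔLEO1 ChIP A. Most were also lost without any other single library except ΔLEO1 input A.

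In 19 annotation classes of peak regions, ChIP over input was lower than in wild type by the same test. The log2 differences were -0.65 for 5′ UTR, -0.62 for SVA, -0.58 for centromeric satellites, -0.57 for CpG islands, -0.48 for ERVK, -0.44 for exons, -0.41 for promoters, -0.39 for 3′ UTR, -0.37 for ERV1, -0.33 for L1, -0.31 for simple repeats, -0.29 for intergenic regions, -0.29 for transcription termination sites, -0.24 for introns, -0.22 for MIR, -0.21 for ERVL-MaLR, -0.18 for L2, -0.18 for ERVL and -0.13 for Alu. All ChIP libraries entered each class, so the classes are not independent of each other, and the lower ratio of peak to window reads in ΔLEO1 given above moves with all of them. The libraries on which the regions were called are not stated. Whether the regions were chosen as high in wild type was not tested, so these differences are a description.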

How the results depend on the processing

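Window calls against input were 107049 under the replicate block, 53352 by DESeq2 and 75404 to 100904 with 1 library left out, against 111972. Deviations of same-letter ChIP and input windows had a correlation of -0.00277 in log2 CPM. With so few reads per window they are mostly counting noise, so this cannot show whether same-letter libraries were paired. Region calls were 3 under TMM, 3 with totals of the peak table and 0 by DESeq2, against 13805, since these centre the regions, and 10855 to 13224 with 1 library left out. Called chromosomes were 18 under TMM, 22 with totals over non-overlapping windows and 19 to 21 with 1 library left out, against 21. With sums and totals both over non-overlapping windows, 21 were called, 13 higher and 8 lower. Chromosome 7 turned to -0.0123 under TMM. With totals over non-overlapping windows set against sums over all distinct windows, 13 chromosomes fell below input: 7 (-0.28), 3 (-0.27), 5 (-0.24), 15 (-0.23), 2 (-0.22), 10 (-0.22), 8 (-0.20), X (-0.20), 4 (-0.15), 6 (-0.15), 21 (-0.12), 13 (-0.0591) and 18 (-0.0220). Of the annotation classes TMM called 1, against 26, and 26 stayed with 1 library left out. Under TMM, 14 classes turned negative, from -0.0061 for introns, -0.0071 for Alu, -0.0073 for exons and -0.0083 for MIR to -0.0298 for ERVL, -0.0377 for hAT-Charlie, -0.0462 for CpG islands, -0.0475 for intergenic regions, -0.0614 for Gypsy, -0.0781 for L2, -0.15 for TcMar-Tigger, -0.19 for ERVK, -0.20 for satellites and -0.32 for centromeric satellites.

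Against wild type, window calls were 29 under the replicate block, 0 by DESeq2, 74 with totals over non-overlapping windows and 0 to 36 with 1 library left out, against 47. Without wild-type ChIP A the count was 1 and without ΔLEO1 ChIP B it was 7, and most of these were then higher in ΔLEO1. Region calls were 17 with totals over non-overlapping windows and 0 to 4 with 1 library left out, against 0. Chromosome calls were 2 with those totals and 0 to 8 with 1 library left out, against 0. Class calls were 7 under TMM and 17 to 21 with 1 library left out, against 19. Under TMM, ERVL-MaLR (0.0590), introns (0.0275), Alu (0.137), MIR (0.0515), ERVL (0.0926) and L2 (0.0898) turned positive. Families with a median above 0 numbered 21 to 23, against 22, and low against high CpG promoters stayed 1.74 to 1.84 apart. Beyond centring, the cause was not tested. Among the calls named in the text, the replicate block ended those of LEO1 and of chromosomes 1 and X and added the satellite class against wild type (-0.52), and it changed no other. A median of 8 ChIP reads per window in letter B limits single windows.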
